A study of Homo sapiens with 12 samples.

Results

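The genes described here are 10 that encode proteins released by, or displayed on, secretory epithelium in host defence and in the acute-phase response: LCN2, SAA1, SAA2, PIGR, LTF, SLPI, WFDC2, MUC1, MUC4 and MUC16. They were taken as a list by name, and all 10 were found among the 62696 genes of the count tables. RNA-seq was performed on 2 HER2 breast cancer lines, SKBR3 and MDA-MB-453, which were untreated or TWEAK-treated, with 3 biological replicates in each of the 4 groups and 12 libraries in all. TWEAK, a cytokine of the TNF superfamily, signals through the receptor Fn14, which TNFRSF12A encodes. After 8 h of starvation in Opti-MEM, cells were given TWEAK at 10 ng/ml and harvested after 48 h, with fresh TWEAK at 24 h; the labels repeat this for untreated samples, whose handling is not otherwise described. Each line is a single established line, so that a difference between the lines is a difference between 2 cultures and not between groups of tumours.

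Epithelia that face the outside, the ducts of the breast among them, secrete proteins that hold back microbes and cover themselves with mucins. Lipocalin 2 (LCN2) and lactoferrin (LTF) withhold iron from bacteria, the polymeric immunoglobulin receptor (PIGR) carries IgA into secretions such as milk, and SLPI and WFDC2 belong to the whey acidic protein family, of which SLPI inhibits neutrophil elastase. Serum amyloid A (SAA1 and SAA2) is made chiefly by the liver when cytokines activate NF-κB, C/EBP and STAT3, but epithelial cells can make it too. MUC1, MUC4 and MUC16 are mucins anchored in the membrane, and the shed parts of MUC1 and MUC16 are measured in blood as the tumour markers CA15-3 and CA125.

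The genes lie on 6 chromosomes of hg38, with positions from GENCODE release 44. LCN2 (ENSG00000148346.12) lies at chr9:128149071-128153453 on the plus strand, SAA1 (ENSG00000173432.13) at chr11:18266260-18269977 on the plus strand and SAA2 (ENSG00000134339.9) at chr11:18239223-18248668 on the minus strand. PIGR (ENSG00000162896.6) lies at chr1:206928522-206946466 and LTF (ENSG00000012223.13) at chr3:46435645-46485234, both on the minus strand. The whey acidic protein genes are SLPI (ENSG00000124107.5) at chr20:45252239-45254564 on the minus strand and WFDC2 (ENSG00000101443.18) at chr20:45469753-45481532 on the plus strand. The mucin genes are all on the minus strand, with MUC1 (ENSG00000185499.17) at chr1:155185824-155192916, MUC4 (ENSG00000145113.22) at chr3:195746765-195811973 and MUC16 (ENSG00000181143.15 in the files, a version older than that of the annotation) at chr19:8848844-9010390.

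SAA1 and SAA2 are close copies, and the counts of the pair depend on how reads that fit both were assigned, which is not stated. Their coding sequences are 366 bases long, differ at 11 bases and are 97.0% identical, with a longest identical run of 186 bases. The stretch from base 205 to base 324 of the coding sequence, which lies in exons, holds 10 of the 11 differences and is shown because these bases decide to which gene a read can be assigned; capitals mark the bases that differ.
SAA1: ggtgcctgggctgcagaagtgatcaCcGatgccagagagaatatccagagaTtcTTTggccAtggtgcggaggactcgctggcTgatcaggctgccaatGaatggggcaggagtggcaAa
SAA2: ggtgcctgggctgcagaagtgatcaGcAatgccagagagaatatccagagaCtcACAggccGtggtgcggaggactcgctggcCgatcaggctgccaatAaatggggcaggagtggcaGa
Of all 100-base windows of the canonical transcript, 20.8% of those of SAA1 and 35.6% of those of SAA2 also occur in another gene. Over all annotated exons, the read-through gene SAA2-SAA4 shares 11.9% of the exonic bases of SAA2. Reads of these windows may have been dropped or split, so the levels of SAA1 and SAA2 are uncertain.

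Promoters were available from RefSeq (GRCh38.p14) for 7 of the 10 genes, at 11 start sites; SAA1, SAA2 and SLPI had no entry. The stretches upstream of the canonical start sites of LCN2, LTF and MUC1 are shown since LCN2 holds a match to the NF-κB consensus and LTF and MUC1 are genes whose level changed with TWEAK. Only bases outside annotated exons are printed, and capitals mark motif matches.
LCN2, chr9:128149265-128149440, plus strand: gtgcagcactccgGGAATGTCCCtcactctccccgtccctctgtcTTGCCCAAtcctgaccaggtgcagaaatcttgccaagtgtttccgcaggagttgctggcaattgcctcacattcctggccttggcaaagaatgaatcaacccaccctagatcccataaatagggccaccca
LTF, chr3:46464906-46465155, minus strand: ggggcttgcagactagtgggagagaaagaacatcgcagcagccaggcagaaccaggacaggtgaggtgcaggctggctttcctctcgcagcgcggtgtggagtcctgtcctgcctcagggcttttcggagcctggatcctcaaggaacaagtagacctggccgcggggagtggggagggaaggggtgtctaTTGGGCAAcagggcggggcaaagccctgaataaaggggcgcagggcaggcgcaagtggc
MUC1, chr1:155192917-155193165, minus strand: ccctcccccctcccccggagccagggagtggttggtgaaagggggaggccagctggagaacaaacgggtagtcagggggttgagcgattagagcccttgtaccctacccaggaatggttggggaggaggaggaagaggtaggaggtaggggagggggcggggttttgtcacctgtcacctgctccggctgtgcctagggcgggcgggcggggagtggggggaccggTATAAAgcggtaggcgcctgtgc
In LCN2 the capitals are a match to the NF-κB consensus, GGAATGTCCC, which begins 175 bases before the start site, and a match to the C/EBP motif TTNNGNAA, which begins 143 bases before it and does not overlap the first. In LTF the capitals are a C/EBP match that begins 59 bases before the start site, and in MUC1 they are TATAAA, 24 bases before it. The search covered both strands of windows of 300 bases. Of all 35116 promoters of that length, 11.3% held the NF-κB consensus, 36.8% the C/EBP motif, 7.66% the STAT motif TTCNNNGAA and 11.5% TATAAA. The NF-κB consensus and the C/EBP motif were also matched at the same 1 of 2 start sites of MUC16. The STAT motif was matched at 1 start site each of LTF and MUC4, and the C/EBP motif in WFDC2 and at 1 further start site of LTF. TATAAA was matched at 1 further start site of MUC1 and at the LTF start site that held the STAT match. These matches describe letters only, and binding was not measured in these libraries.

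The deposited values are whole-number counts per gene. Totals ranged from 24842722 to 28647209 counts in SKBR3 libraries and from 24773003 to 35208304 in MDA-MB-453 libraries. Levels are given as CPM, each library's counts scaled to the same total and normalised by edgeR's TMM factors over all 12 libraries, and 3 counts, taken as the limit below which a level was not resolved, correspond to 0.108 to 0.125 CPM in SKBR3 and 0.0818 to 0.115 CPM in MDA-MB-453. The second TWEAK replicate differed most from its group in each line, with a chi-square per degree of freedom of 21.1 and 23.8 against the other TWEAK replicates of SKBR3 (1.78 to 5.74 for other pairs of replicates of that line) and of 10.2 and 5.31 in MDA-MB-453 (2.09 to 2.85). NFKB2, which encodes the precursor of p52 and served as check of the treatment, rose in both lines, with a log2 fold change of 1.79 (adjusted p = 9.34e-08, edgeR) in SKBR3 and 1.67 (adjusted p = 3.01e-10, edgeR) in MDA-MB-453. Each of the 8 markers of breast epithelium was above the limit in some library of every group. They summed to between 21000 and 22900 CPM in untreated SKBR3, between 23000 and 26800 CPM in its TWEAK-treated libraries, and between 3560 and 3660 and between 3570 and 3840 CPM for untreated and TWEAK-treated MDA-MB-453. The marker CDH1 was near the limit in SKBR3, at 0.162 ± 0.114 CPM untreated and 0.136 ± 0.0843 CPM with TWEAK (SD, n = 3), and single libraries lay under it. Among the 8 markers, the keratin gene KRT7 was higher after TWEAK in SKBR3 (log2 fold change 0.46, adjusted p = 0.0114, edgeR) and in MDA-MB-453 (0.25, adjusted p = 0.0101, edgeR), where it was not called without untreated replicate 2 or 3 or in 1 fit of all 12 libraries. The keratin gene KRT19 was higher in SKBR3 (0.32, adjusted p = 0.0608, edgeR), but not at an adjusted p of 0.05, without untreated replicate 1 or 2, or with the replicate number as a block. The part of this rise in the changes of the 10 genes was not tested.

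With TWEAK, SAA1 rose and MUC1 fell in SKBR3, and LTF rose in MDA-MB-453. These were the only genes of the 10 that passed the test in either line when all its libraries were fitted, with a threshold of 0.1 on the p of edgeR's two-sided quasi-likelihood test, adjusted by Benjamini-Hochberg over all genes. In SKBR3, 6 of the 10 had enough counts to be tested and 2 were called (1 higher, 1 lower), where 10.4% of all genes tested were called, 6.6% higher and 3.82% lower. That share moved when single libraries were left out, from 1034 genes higher and 599 lower of 15661 tested. Without TWEAK replicate 2, 1589 were higher and 1191 lower of 15996, and without untreated replicate 2, 686 and 240 of 16082. In MDA-MB-453, 2 of the 10 could be tested and 1 was called, where 1.49% of all genes tested were called, 1.29% higher and 0.208% lower. There too the share rested on single libraries, with 192 genes higher and 31 lower of 14929 tested in the full fit. Without TWEAK replicate 2, 1003 were higher and 1098 lower of 15216, and without untreated replicate 3, 120 and 11 of 15171. SAA1 in SKBR3 and LTF in MDA-MB-453 passed the filter on low counts only through their TWEAK-treated libraries, so that no weight can be put on how many of the tested genes rose. The plot of levels by library shows all 10 genes.

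**Figure D1:**
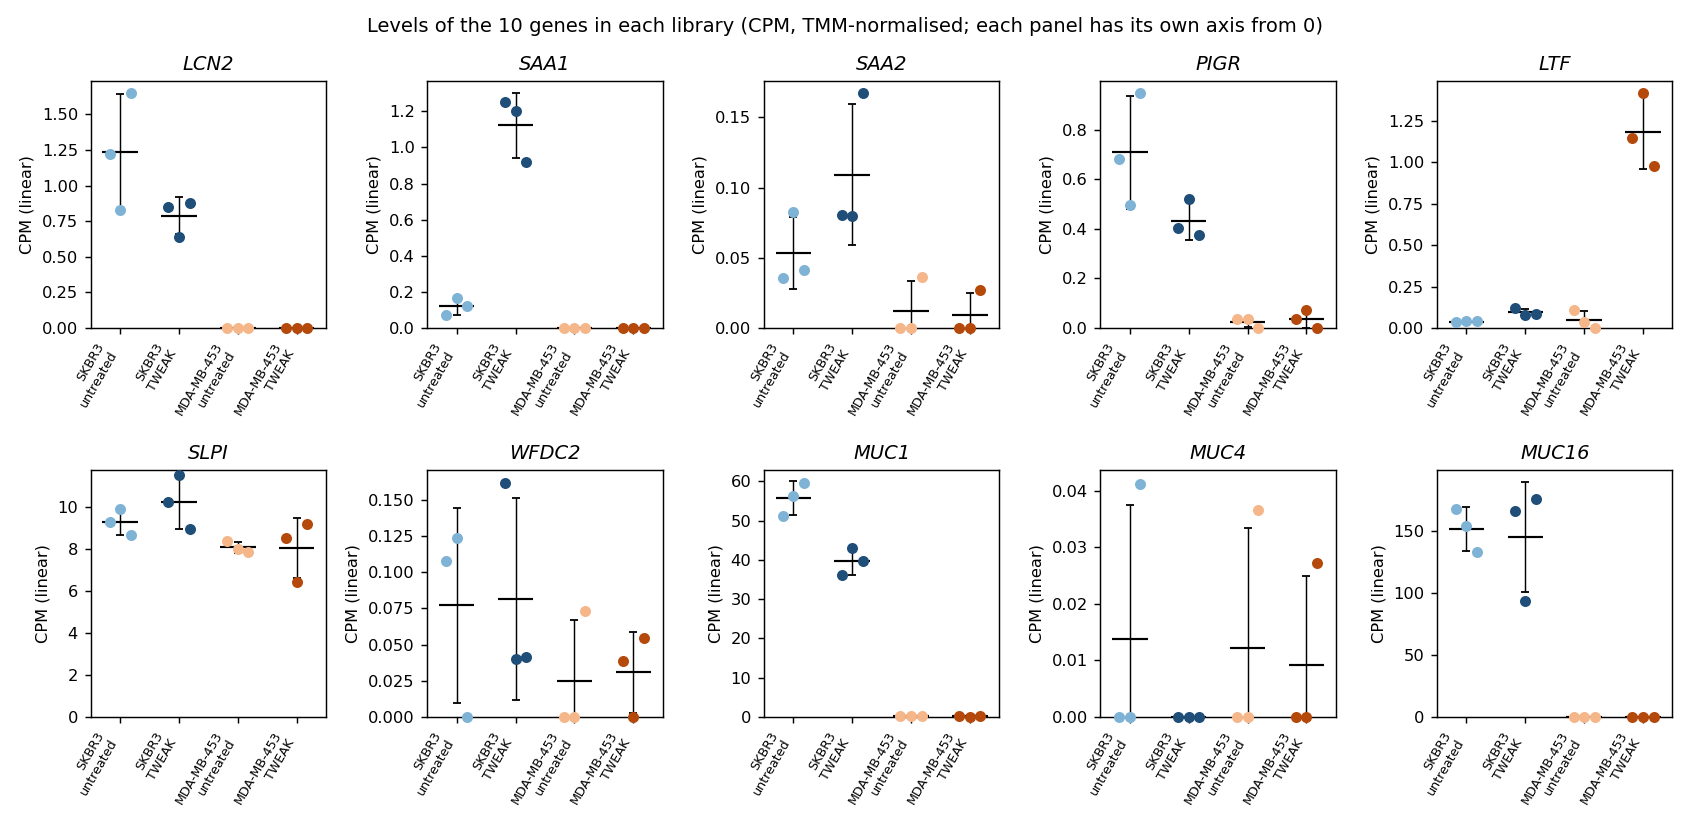
Levels in CPM (linear axis, a separate one for each gene) of the 10 genes in each of the 12 libraries; points are libraries in the order of replicates 1 to 3, the horizontal line is the mean and the bar is ± 1 SD (n = 3). SAA1 in SKBR3 and LTF in MDA-MB-453 lie higher in every TWEAK-treated library, MUC1 lies lower in every TWEAK-treated SKBR3 library, and LCN2, SAA1, MUC1 and MUC16 are at or near 0 in MDA-MB-453.

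Of the acute-phase genes, SAA1, which encodes a lipoprotein-bound protein of the acute-phase response, held 2, 4 and 3 counts in untreated and 31, 30 and 22 counts in TWEAK-treated SKBR3 replicates, or 0.0718, 0.165 and 0.124 CPM against 1.25, 1.2 and 0.918 CPM. All TWEAK replicates lay above all untreated replicates, as they did for 14.4% of all genes tested in that line (26.5% in either direction). The level rose from 0.12 ± 0.0469 to 1.12 ± 0.18 CPM (SD, n = 3), with a log2 fold change of 3.20 (standard error 0.359, adjusted p = 0.000201, edgeR). The ratio of the summed counts, scaled for depth, was 9.55, with a 95% interval of 4.79 to 21.6 that covers counting error only. Adding the counts of SAA2 to those of SAA1 gave a log2 fold change of 2.81 (adjusted p = 0.000239, edgeR). SAA1 thus went from about the limit of 3 counts to a level that was still low for a library of this depth. No count of SAA1 was found in any of the 6 MDA-MB-453 libraries, which allows a level of up to 0.0818 to 0.115 CPM.

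SAA2, the neighbouring copy, was too low to be tested in either line. It held 1, 2 and 1 counts in untreated and 2, 2 and 4 counts in TWEAK-treated SKBR3 replicates, with a ratio of 2.07 (95% interval 0.555 to 9.4), so that a change was not detectable at this depth. In MDA-MB-453, 1 count was found in each group. The other acute-phase proteins, a list of 23 genes, were mostly too low as well. In SKBR3, 5 of them were tested and 1 was higher, ORM1, which encodes a plasma glycoprotein of the acute-phase response. ORM1 rose from 0.739 ± 0.223 to 2.03 ± 0.245 CPM (SD, n = 3), with a log2 fold change of 1.46 (adjusted p = 0.00265, edgeR). Among genes of the list too low to be tested, ORM2 and LBP are named after their values were seen. ORM2 went from 9 to 37 counts over the group (ratio 4.26, 95% interval 2.02 to 10). LBP went from 13 to 38 (3.03, 1.58 to 6.19). Both were higher in every TWEAK replicate, as were 14.4% of all genes tested in that line. The list held 2 higher genes without untreated replicate 1, 2 or 3 or TWEAK replicate 2, with at least 10 counts in every library and in 1 fit of all 12 libraries, and 3 without TWEAK replicate 1 and without the filter on low counts. The median log2 fold change of the 5 genes was 0.43, and that of all genes tested was -0.0074. In MDA-MB-453, 2 of the 23 were tested and none was called by edgeR, also at an unadjusted p under 0.05, and ORM1 held no count in any library of that line. Of its untested genes, LBP went from 4 to 14 counts over the group (ratio 3.19, 95% interval 1 to 13.3). TF went the other way, from 16 to 5 (0.285, 0.0817 to 0.814). The 6 hepatocyte markers, given because the liver is the main source of these proteins, summed to between 0.359 and 0.742 CPM in untreated and between 0.401 and 0.459 CPM in TWEAK-treated SKBR3 libraries. Of these, FGB, a fibrinogen chain, went from 5 to 11 counts over the group (ratio 2.28, 95% interval 0.73 to 8.36). SERPINC1, antithrombin, went from 9 to 2 (0.23, 0.0242 to 1.11). Their groups barely separated. FGB was at 0.125 CPM in its lowest TWEAK replicate and 0.124 CPM in its highest untreated one. SERPINC1 was at 0.0808 CPM in its highest TWEAK replicate and 0.0827 CPM in its lowest untreated one. Groups did not overlap for 26.5% of all genes tested in SKBR3. Neither gene was tested, a change of either was not detectable at this depth, and their part in the rise of SAA1 and ORM1 was not tested.

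Of the iron-withholding proteins, LTF, which encodes lactoferrin of milk and of neutrophil granules, rose in MDA-MB-453. Untreated replicates held 3, 1 and 0 counts and TWEAK-treated replicates 30, 38 and 36, or 0.111, 0.0364 and 0 CPM against 1.15, 1.42 and 0.981 CPM. The groups did not overlap, which in this direction held for 8.19% of all genes tested in that line, and every untreated library lay at or under the limit of 3 counts. The level rose from 0.0493 ± 0.0568 to 1.18 ± 0.219 CPM (SD, n = 3), with a log2 fold change of 4.46 (standard error 0.486, adjusted p = 0.000121, edgeR). The ratio of summed counts was 23.7 (95% interval 8.99 to 88.7). Since the untreated counts were so few, the size of the change depended on single libraries, and the log2 fold change was 5.70 without untreated replicate 1 (adjusted p = 0.000766, edgeR), within a range of 3.91 to 5.70 over all alternatives. In SKBR3, LTF held 1, 1 and 1 counts in untreated and 3, 2 and 2 counts in TWEAK-treated replicates, all at or under the limit, and no fold change is given. A difference of the response of LTF between the lines was not called (adjusted p = 0.279, edgeR's interaction test; 0.154 to 0.532 over the alternatives).

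LCN2 encodes a lipocalin that binds bacterial siderophores. It held 34, 20 and 40 counts in untreated and 21, 16 and 21 counts in TWEAK-treated SKBR3 replicates. The levels were 1.22, 0.827 and 1.65 CPM against 0.849, 0.641 and 0.876 CPM, and the groups overlapped through untreated replicate 2. The log2 fold change was -0.65 (standard error 0.285, adjusted p = 0.239, edgeR), with a 95% interval of -1.21 to -0.089, and over the alternatives its adjusted p lay between 0.148 and 0.534. The unadjusted interval lies below 0, but the gene did not pass adjustment over all genes. In MDA-MB-453, LCN2 held no count in any library. Among genes listed as partners and receptors of these proteins, MMP9, the gelatinase to which LCN2 binds, rose in SKBR3 from 3.59 ± 0.847 to 22.3 ± 1.41 CPM (SD, n = 3), with a log2 fold change of 2.63 (adjusted p = 5.11e-07, edgeR), and stood at 0.0121 and 0.0592 CPM in untreated and TWEAK-treated MDA-MB-453.

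PIGR, which carries polymeric IgA through the epithelial cell, held 19, 12 and 23 counts in untreated and 10, 13 and 9 counts in TWEAK-treated SKBR3 replicates. The mean level was 0.709 ± 0.227 and 0.433 ± 0.077 CPM (SD, n = 3), and the groups overlapped. The log2 fold change was -0.70 (standard error 0.323, adjusted p = 0.26, edgeR). Its normal 95% interval of -1.34 to -0.071 is narrower than the test allows, since the unadjusted p was 0.0527 (edgeR), so a change of 0 is not excluded. In MDA-MB-453, no library held more than 2 counts of PIGR, and no fold change is given.

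Of the whey acidic protein genes, SLPI was measured in every library and was not called with TWEAK in either line. In SKBR3 its levels were 9.26, 9.89 and 8.66 CPM in untreated and 10.2, 11.5 and 8.93 CPM in TWEAK-treated replicates. In MDA-MB-453 they were 8.35, 7.98 and 7.85 CPM in untreated and 8.5, 6.41 and 9.19 CPM in TWEAK-treated replicates. The treated replicates spread more widely in both lines, and they overlapped the untreated replicates. The log2 fold change was 0.14 in SKBR3 (95% interval -0.082 to 0.355, adjusted p = 0.56, edgeR) and 0.0088 in MDA-MB-453 (95% interval -0.21 to 0.228, adjusted p = 0.986, edgeR), so that unadjusted intervals leave room for changes of up to about those bounds. WFDC2, whose product HE4 is a serum marker, held 0 to 4 counts in every SKBR3 library and 0 to 2 in every MDA-MB-453 library and was not tested. A list of 19 other genes covered the WFDC and Kunitz inhibitor families and the semenogelin genes SEMG1 and SEMG2. It held 2 genes with enough counts in each line and none was called by edgeR. At an unadjusted p under 0.05 (edgeR), 2 passed in SKBR3 and 1 in MDA-MB-453. In SKBR3, both were higher in 1 fit of all 12 libraries, and 1 was higher with DESeq2, without the filter on low counts, and when TWEAK replicate 2 or 3 was left out. In MDA-MB-453, 1 was higher without TWEAK replicate 2 or with the replicate number as a block.

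Of the mucins, MUC1 fell with TWEAK in SKBR3. Its levels were 51.1, 56.4 and 59.6 CPM in untreated and 36.2, 43 and 39.6 CPM in TWEAK-treated replicates. All TWEAK replicates lay below all untreated replicates, which held for 12.2% of all genes tested in that line. The mean was 55.7 ± 4.28 and 39.6 ± 3.39 CPM (SD, n = 3), and the log2 fold change was -0.50 (standard error 0.0849, 95% interval -0.662 to -0.329, adjusted p = 0.00374, edgeR). MUC1 rested on 1424, 1364 and 1446 counts against 897, 1074 and 950, many more than SAA1 and LTF held. Over the alternatives the log2 fold change of MUC1 lay between -0.56 and -0.43 and was called in each. A gene on the same strand shares 2.0% of the exonic bases of MUC1. In MDA-MB-453, MUC1 held 7, 5 and 4 counts in untreated and 6, 1 and 7 in TWEAK-treated replicates, with a ratio of 0.798 (95% interval 0.361 to 1.74), and it was too low to be tested there. The difference between the responses of the lines was 0.17 on the log2 scale (standard error 0.598, adjusted p = 0.985, edgeR), and this wide error means that the fall in SKBR3 was not shown to be particular to that line.

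MUC16 was the most strongly counted gene of the list in SKBR3, with 168, 154 and 133 CPM in untreated and 166, 93.9 and 176 CPM in TWEAK-treated replicates. TWEAK replicate 2 alone lay below the untreated range, and the other TWEAK replicates lay near or above its top. The log2 fold change was -0.075 (standard error 0.185, adjusted p = 0.874, edgeR). Without TWEAK replicate 2 it was 0.16 and was called higher (adjusted p = 0.0918, edgeR), and without untreated replicate 1 it was 0.0067 (adjusted p = 0.995, edgeR), within a range of -0.23 to 0.16 over all alternatives, so the direction of MUC16 rests on single libraries. Without TWEAK replicate 2, SAA1 (log2 fold change 3.15, adjusted p = 4.62e-06, edgeR) and MUC1 (-0.56, adjusted p = 4.09e-07, edgeR) were also called, as 2 higher genes and 1 lower gene of the 10. In MDA-MB-453, MUC16 held 3, 4 and 3 counts in untreated and 0, 3 and 0 counts in TWEAK-treated replicates (ratio 0.274, 95% interval 0.0484 to 1.06) and was not tested. MUC4, a mucin that binds the receptor ERBB2 in the membrane, was found with at most 1 count in any library of either line. Of the 100-base windows of its canonical transcript, 13.3% repeat within that transcript.

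**Figure D2:**
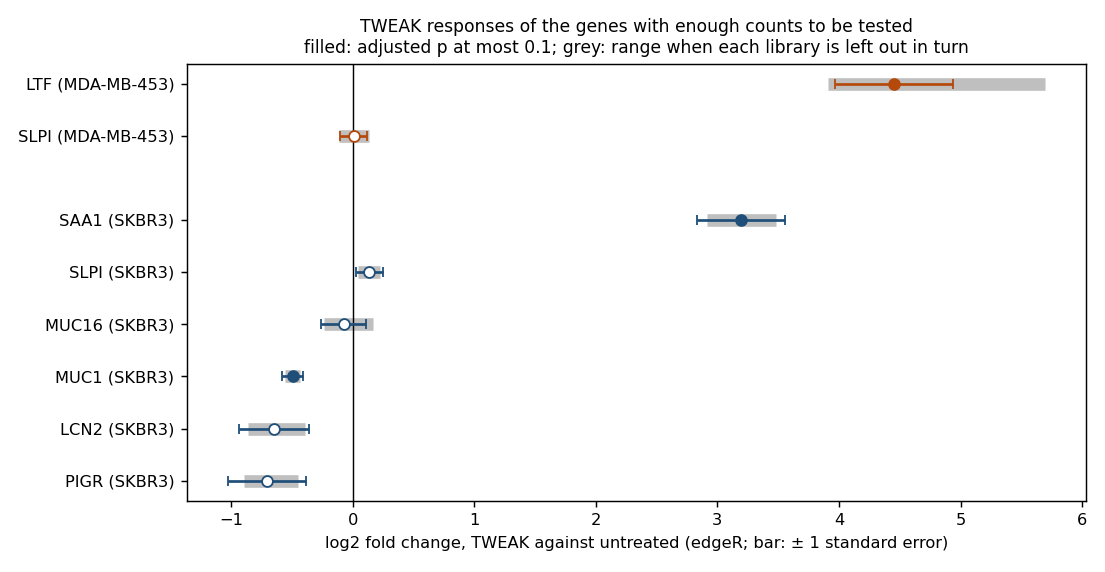
Log2 fold changes (TWEAK against untreated, edgeR, horizontal axis) of the genes with enough counts to be tested; bars are ± 1 standard error, filled points passed an adjusted p of 0.1 and the grey band is the range when each library is left out in turn. SAA1 in SKBR3 (3.20) and LTF in MDA-MB-453 (4.46) stand far to the right, MUC1 (-0.50) stays left of 0 throughout its band, and the bands of MUC16 in SKBR3 and SLPI in MDA-MB-453 cross 0.

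Among other mucins, a list of 20 genes, 8 were tested in SKBR3 and 1 was lower, MUC15, a membrane mucin, which fell from 6.88 ± 0.224 to 5.33 ± 0.553 CPM (SD, n = 3; log2 fold change -0.37, adjusted p = 0.0716, edgeR). The call of MUC15 was lost without any single library in turn, with an adjusted p from edgeR between just over 0.1 and 0.225. It was also lost with DESeq2 (adjusted p = 0.148), with the replicate number as a block, and at an adjusted p of 0.05. In MDA-MB-453, 7 were tested and 1 was lower, the secreted gel-forming mucin MUC2, which is named after its value was seen, since it lay below 1 CPM on average. MUC2 fell from 1.28 ± 0.489 to 0.436 ± 0.172 CPM (SD, n = 3; log2 fold change -1.57, adjusted p = 0.0457, edgeR), and its call was lost when untreated replicate 1 or 3 or TWEAK replicate 3 was left out (adjusted p = 0.22, 0.272 and 0.303, edgeR). MUC2 passed the filter on low counts only through its untreated libraries (0.729 to 1.67 CPM, against 0.327 to 0.634 CPM with TWEAK), so that no weight can be put on its direction. With at least 10 counts in every library MUC2 was not tested, and without TWEAK replicate 2, 2 mucins were lower in MDA-MB-453. The median log2 fold change of the tested mucins was -0.16 for SKBR3 (-0.0074 over all genes) and -0.12 for MDA-MB-453 (0.0016 over all genes).

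The enzymes that build O-linked sugars on mucins, a list of 29 genes, held 20 tested genes in SKBR3, of which 2 were higher and 3 lower. FUT3, which adds the fucose of Lewis antigens, rose from 2.82 ± 0.411 to 5.32 ± 0.508 CPM (SD, n = 3; log2 fold change 0.91, adjusted p = 0.00237, edgeR). GCNT1, which branches core 1 into core 2 glycans, fell from 15.7 ± 0.242 to 10.4 ± 1.62 CPM (SD, n = 3; -0.61, adjusted p = 0.00476, edgeR). ST6GALNAC4, a sialyltransferase, fell from 83.3 ± 3.98 to 63.7 ± 2.3 CPM (SD, n = 3; -0.39, adjusted p = 0.00314, edgeR). The other called genes, named after their values were seen, were B4GALT1 (0.21, adjusted p = 0.0752, edgeR) and GALNT12 (-0.21, adjusted p = 0.0869, edgeR). These genes moved in both directions, and the median of the list was -0.099. FUT3 was the 1 higher gene at an adjusted p of 0.05 and without any single library in turn except TWEAK replicate 2, without which 3 genes were higher. In MDA-MB-453, 18 were tested and none was called by edgeR, with 6 at an unadjusted p under 0.05. In the alternatives, edgeR called 1 of the list higher without the filter on low counts, and 1 higher and 4 lower without TWEAK replicate 2. With the replicate number as a block, 2 were higher and 1 lower.

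Of 34 further genes of secreted defence, 7 were tested in SKBR3, with 1 higher and 1 lower. TFF3, a trefoil peptide of mucus, fell from 8.82 ± 1.57 to 4.47 ± 1.14 CPM (SD, n = 3; log2 fold change -0.99, adjusted p = 0.00606, edgeR), and LGALS9, a galectin, rose from 1.49 ± 0.27 to 2.73 ± 0.38 CPM (SD, n = 3; 0.86, adjusted p = 0.0173, edgeR). In MDA-MB-453, 8 were tested and 3 were higher. DMBT1, a scavenger receptor protein of saliva and mucus, rose from 7.73 ± 0.316 to 11.3 ± 1.51 CPM (SD, n = 3; 0.55, adjusted p = 0.0079, edgeR). The other two changed less, with log2 fold changes of 0.23 for the galectin LGALS3 (adjusted p = 0.0405, edgeR) and 0.18 for CLU, which encodes the secreted chaperone clusterin (adjusted p = 0.0275, edgeR). Neither was called with all 12 libraries in 1 fit (adjusted p = 0.384 and 0.494, edgeR) or when untreated replicate 2 or 3 or TWEAK replicate 3 was left out, and LGALS3 was not called without untreated replicate 1 either, with an adjusted p from edgeR over the alternatives between 4.41e-05 and 0.384 for LGALS3 and between 0.000583 and 0.494 for CLU. In SKBR3, 2 genes of the list were higher when untreated replicate 3 or TWEAK replicate 2 or 3 was left out, with DESeq2, without the filter on low counts and in 1 fit of all 12 libraries, and 2 were lower without TWEAK replicate 3 and without the filter. The median of the list was -0.11 for SKBR3 and 0.21 for MDA-MB-453.

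Of the 25 partners and receptors, 15 were tested in SKBR3, where MMP9 and ANXA2 were higher, and 18 in MDA-MB-453, where PLSCR1 and LGALS3 were higher; none was lower in either line. ANXA2, a membrane-binding protein that SLPI can bind, rose in SKBR3 from 203 ± 3.96 to 307 ± 24.8 CPM (SD, n = 3; log2 fold change 0.60, adjusted p = 0.000234, edgeR). PLSCR1, a phospholipid scramblase to which SLPI also binds, rose in MDA-MB-453 from 45.4 ± 2.94 to 65.3 ± 8.53 CPM (SD, n = 3; 0.52, adjusted p = 0.00192, edgeR). Without TWEAK replicate 2, 4 of these genes were higher in SKBR3, and 4 were lower in MDA-MB-453; when any untreated replicate of MDA-MB-453 or its TWEAK replicate 3 was left out, and in 1 fit of all 12 libraries, 1 gene was higher there, and without the filter on low counts 1 was lower.

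Of 36 genes upstream of these proteins (Fn14, NF-κB, C/EBP and STAT factors, cytokines and epithelial factors), 31 were tested in SKBR3, with 12 higher and 3 lower, and 29 in MDA-MB-453, with 6 higher and 1 lower. Besides NFKB2, RELB, the partner of p52, and IL6ST, the receptor chain through which IL-6 activates STAT3, rose in both lines. The lower genes numbered 0 in SKBR3 without untreated replicate 1 or 3 or TWEAK replicate 1, 1 without untreated replicate 2 and 5 when TWEAK replicate 2 was left out or all 12 libraries were in 1 fit, and in MDA-MB-453 they numbered 3 without TWEAK replicate 2 or without the filter on low counts. The log2 fold change of RELB was 1.44 in SKBR3 (adjusted p = 1.73e-05, edgeR) and 2.75 in MDA-MB-453 (adjusted p = 2.95e-08, edgeR). In SKBR3 the level of IL6ST went from 62.8 ± 5.33 to 143 ± 32.6 CPM, and in MDA-MB-453 it went from 1.87 ± 0.166 to 10.6 ± 0.404 CPM (SD, n = 3). TNFRSF12A was higher in SKBR3 (0.36, adjusted p = 0.0322, edgeR) and was not called in MDA-MB-453 (0.17, adjusted p = 0.129, edgeR). Its call in SKBR3 was lost without untreated replicate 1 or 2 (adjusted p = 0.17 and 0.144, edgeR), and in MDA-MB-453 its adjusted p from edgeR or DESeq2 lay between 0.00849 and 0.796 over the alternatives. The share of the list that was called was thus above that of all genes in each line, but the list was written with earlier results of these data known and is no independent evidence.

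**Figure D3:**
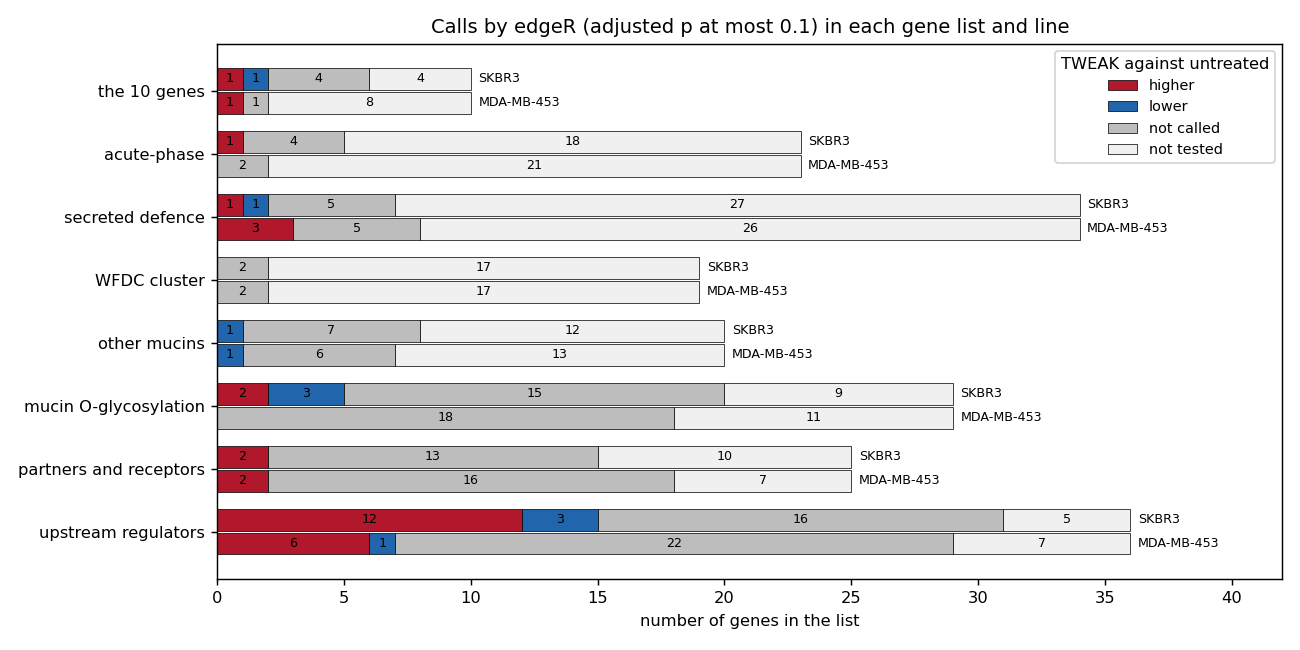
Number of genes (horizontal axis) in each gene list that were higher, lower, not called or not tested with TWEAK in SKBR3 (upper bar of each pair) and MDA-MB-453 (lower bar), by edgeR at an adjusted p of at most 0.1. Most genes of the acute-phase, secreted defence and WFDC lists could not be tested, and the upstream regulators hold the most calls, with 12 higher in SKBR3 and 6 in MDA-MB-453.

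LTF and LCN2 are also products of neutrophils, so markers of other cells were measured in the same libraries. The 10 neutrophil and myeloid markers summed to between 2.26 and 2.93 CPM in untreated and between 23.8 and 27.4 CPM in TWEAK-treated SKBR3 libraries, and to between 1.2 and 1.63 and between 2.26 and 3.06 CPM in MDA-MB-453. This rise was that of ITGAM, an integrin chain of myeloid cells, which went from 0.79 to 23.7 CPM in SKBR3 (log2 fold change 4.90, adjusted p = 2.22e-08, edgeR). In MDA-MB-453, ITGAM went from 0.0738 to 1.35 CPM (log2 fold change 4.10, adjusted p = 8.77e-05, edgeR). Every untreated library of that line lay at or under the limit of 3 counts, with 6 counts over the group against 119 with TWEAK. ITGAM thus passed the filter on low counts there only through its TWEAK-treated libraries, and the size of this change is uncertain. Its part in the changes of SAA1, MUC1 and LTF was not tested. In MDA-MB-453 of either group 7 of the 10 markers were at or under the limit, and MPO, AZU1, ELANE, CEACAM8 and CD68 were at 0 in all 3 TWEAK-treated libraries. CSF3R, the receptor of the neutrophil growth factor G-CSF, was above the limit there, at 1 ± 0.0514 CPM in untreated and 1.23 ± 0.294 CPM in TWEAK-treated libraries (SD, n = 3; log2 fold change 0.26, adjusted p = 0.712, edgeR), where LTF was at 1.18 CPM. In SKBR3, 5 of the 10 were at or under the limit in each group. The 5 lymphoid markers summed to at most 0.801 CPM in any library. The 8 markers of stroma and endothelium summed to between 23.1 and 26.3 CPM in SKBR3 and between 107 and 123 CPM in MDA-MB-453 where they lay at 117 to 123 CPM in untreated and 107 to 113 CPM in TWEAK-treated libraries. Of these, the endothelial cadherin gene CDH5 rose in SKBR3 from 1.74 to 4.2 CPM (log2 fold change 1.26, adjusted p = 0.000855, edgeR). COL1A2, a collagen chain of stroma, was too low to be tested there and went from 6 to 30 counts over the group, with every TWEAK replicate higher. Their part in the changes of SAA1 and MUC1 was not tested. In bulk RNA, fewer cells that express a gene and less RNA per cell cannot be told apart, and this holds for every level given here.

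The test of the difference between the responses of the lines covered 7 of the 10 genes and called none by edgeR, where 3.37% of all genes tested were called, 1.01% with a log2 response that was above that of SKBR3 in MDA-MB-453 and 2.36% with one below it, signs included; 1 of the 7, LTF, had an unadjusted p under 0.05, and DESeq2 called none either. For LCN2 and SAA1 the response in MDA-MB-453 could not be estimated, since every library of that line held no count. A rise of SAA1 in SKBR3 beside no count in MDA-MB-453 is therefore not a tested difference of response.

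The untreated lines differed far more than treatment changed either of them. Untreated SKBR3 was compared with untreated MDA-MB-453 in the fit over all 12 libraries, in which 84.2% of all genes tested were called, 43.5% higher in SKBR3 and 40.7% lower. Of the 7 genes that could be tested, 5 were called, with higher levels in SKBR3 (MUC16, MUC1, PIGR, LCN2 and SAA1). These 5 held at most 7 counts in any MDA-MB-453 library and passed the filter on low counts only through SKBR3, so that their direction was fixed by the filter and their number supports nothing. MUC16 held 11651 counts in the 3 untreated SKBR3 libraries and 10 in those of MDA-MB-453 (3, 4 and 3, about the limit). The ratio was 1250 (95% interval 678 to 2600, adjusted p = 1.71e-14, edgeR). MUC1 held 4234 and 16 counts, a ratio of 283 (95% interval 174 to 496; adjusted p = 1.7e-17, edgeR). For both mucins every SKBR3 library lay above every MDA-MB-453 library, and groups did not overlap for 84.3% of all genes tested, 43.5% with SKBR3 higher and 40.8% lower. PIGR held 54 counts and, at or under the limit in every MDA-MB-453 library, 2 counts, a ratio of 28.9 (95% interval 7.62 to 245; adjusted p = 2.04e-06, edgeR). Against 3 counts per library, LCN2 was at least 11.2-fold higher in SKBR3 (adjusted p = 4.04e-07, edgeR). SAA1 was called as well (adjusted p = 0.00263, edgeR), but its untreated SKBR3 libraries held 2, 4 and 3 counts, about the limit, and no fold is given. With at least 10 counts required in every library none of these 5 could be tested, and SLPI was the 1 gene that was called.

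SLPI and LTF were not called between the untreated lines. SLPI was at 9.27 ± 0.615 CPM in SKBR3 and 8.06 ± 0.261 CPM in MDA-MB-453 (SD, n = 3), and every SKBR3 library lay above every MDA-MB-453 library. The log2 difference was 0.20 (standard error 0.12, 95% interval -0.035 to 0.437, adjusted p = 0.132, edgeR). It passed the threshold in the 6 untreated libraries alone (adjusted p = 0.0334, edgeR) and in 4 other alternatives, with a range of 0.0334 to 0.303. LTF held 3 and 4 counts in all in the untreated lines, at or under the limit in every library, and a difference was not detectable at this depth. The lines were cultured and may have been sequenced separately, so a difference between lines and between the handling of each cannot be told apart.

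Levels were compared between genes per kilobase of exonic length, on which MUC1 stood first in untreated SKBR3, at 23.2 ± 1.79 CPM per kilobase (SD, n = 3). SLPI followed at 15.6 ± 1.03 and MUC16 at 3.43 ± 0.399 CPM per kilobase, since its exons cover 44165 bases and those of SLPI 596. The ranges of these did not overlap. LCN2 (0.772 ± 0.258), PIGR (0.162 ± 0.052) and SAA1 (0.113 ± 0.044 CPM per kilobase) came next, and the ranges of PIGR and SAA1 overlapped. Below them, WFDC2, SAA2, LTF and MUC4 were at 0.0579 CPM per kilobase or less. In TWEAK-treated SKBR3 libraries, SLPI stood at 17.1 ± 2.16 and MUC1 at 16.5 ± 1.42 CPM per kilobase, with overlapping ranges, followed by MUC16 (3.29 ± 1.01), SAA1 (1.06 ± 0.169) and LCN2 (0.494 ± 0.0806). SAA1 thus stood above LCN2 with TWEAK and below it without, and in neither group did the ranges of the pair overlap. With the length of the canonical transcript in place of all exons, MUC1 ranked above SLPI in the TWEAK-treated group as well, at 21.9 CPM per kilobase. On that length SAA1 (0.232 ± 0.0902) also ranked above PIGR (0.166 ± 0.0531 CPM per kilobase) in untreated SKBR3, with overlapping ranges, and SAA2 ranked above WFDC2 and PIGR in the TWEAK-treated group of that line. In MDA-MB-453, SLPI was first in both groups at 13.5 CPM per kilobase. It was followed by MUC1 at 0.0818 ± 0.0241 in untreated cells, and by LTF at 0.297 ± 0.0555 CPM per kilobase (SD, n = 3) in TWEAK-treated cells.

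**Figure D4:**
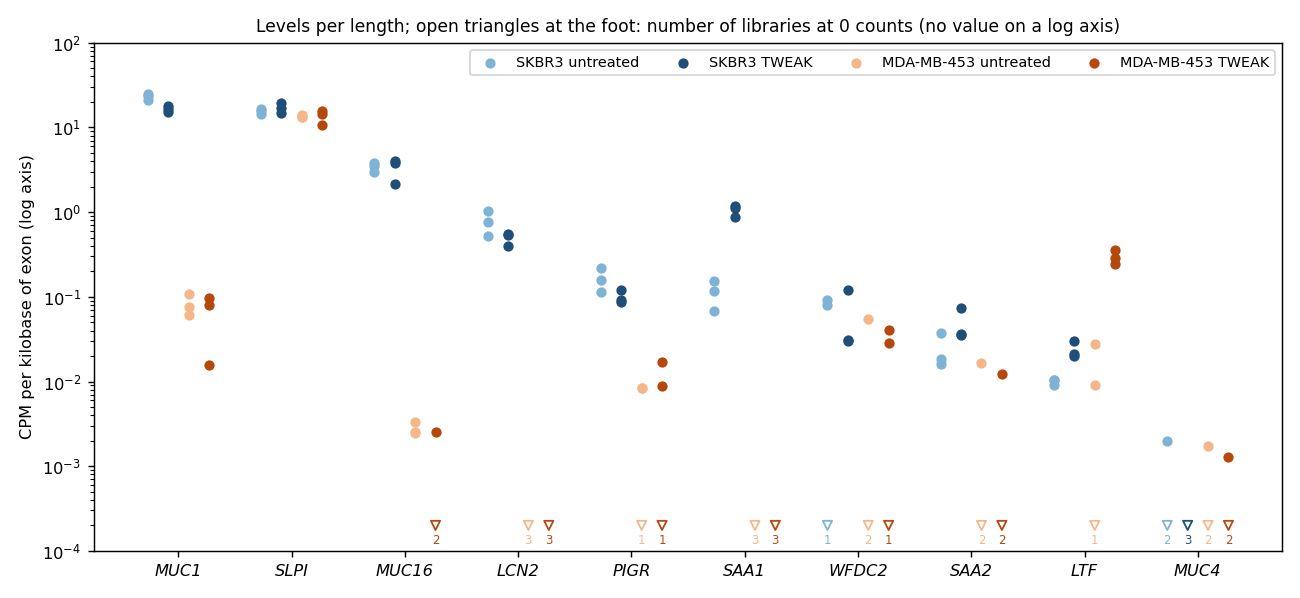
Levels per kilobase of exon (CPM per kilobase, log axis) of the 10 genes in each library, ordered by the mean in untreated SKBR3; open triangles give the number of libraries with 0 counts, which have no place on a log axis. MUC1, SLPI and MUC16 lead in SKBR3, SLPI alone exceeds 1 CPM per kilobase in MDA-MB-453, and SAA1 in SKBR3 and LTF in MDA-MB-453 are the genes whose TWEAK-treated libraries stand well above the untreated ones.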

How the data were processed

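RNA-seq counts of 12 libraries were used. According to the paper's methods and the labels, the authors selected poly-A RNA, trimmed reads with Trimmomatic, aligned them with STAR to hg38 and obtained gene counts from featureCounts. The deposited counts are raw whole numbers. Versions, strand setting, treatment of multi-mapping reads and annotation release are not given in the sources used here, and the paper names a directional RNA kit where the labels name a DNA kit.

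Symbols came from GENCODE release 44, which 61918 of the 62696 identifiers matched with their version. Counts were fitted with edgeR 4.0.16 in R 4.3.3 (filterByExpr, TMM, quasi-likelihood F test, prior count 0.125, Benjamini-Hochberg adjustment over all genes, threshold 0.1, which is the FDR of the study), within each line for TWEAK and over all 12 libraries for the interaction and the untreated lines. An exact permutation test of 3 against 3 cannot give a p under 0.1. A standard error is the log2 fold change over the square root of F. The 95% intervals of log2 fold changes are normal ones from it and are narrower than the quasi-likelihood test allows. Those of count ratios are exact conditional ones. Intervals of count ratios and limits cover counting error only, since reads without molecular identifiers are not independent molecules. Alternatives were DESeq2 1.42.0 and its size factors, other count filters, an adjusted p of 0.05, the replicate number as a block, summed SAA genes, all 12 or the 6 untreated libraries in 1 fit, and each library left out; transcript length per kilobase was added after seeing the data. The main edgeR fit of each comparison was tried on simulated data, and the alternatives were not. The 10 genes and the lists were chosen with earlier results of these data known. Named were the 10 genes, NFKB2 and TNFRSF12A, and from each list and line up to 3 called genes with the largest change and a mean of at least 1 CPM. Single markers of other cells, keratins, and some acute-phase and upstream genes were named after their values were seen.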

Additional observations from a re-analysis of the deposited data

Results flagged for a closer look

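Of the 10 genes, 7 entered edgeR's test of a difference between the lines in the response to TWEAK and none was called, and for 2 of those 7, LCN2 and SAA1, the difference could not be estimated, since no library of MDA-MB-453 held a count. SAA2, WFDC2 and MUC4 were not tested. Of the other genes named, 7 were called, each given here as the log2 response of MDA-MB-453 less that of SKBR3, with Benjamini-Hochberg adjustment over all genes. The response was smaller in MDA-MB-453 for FUT3 (-0.846, standard error 0.178, adjusted p = 0.0127, edgeR), ANXA2 (-0.542, standard error 0.0802, adjusted p = 0.000553, edgeR) and KRT19 (-0.352, standard error 0.102, adjusted p = 0.0939, edgeR). It was larger there for PLSCR1 (0.543, standard error 0.148, adjusted p = 0.0692, edgeR), RELB (1.30, standard error 0.214, adjusted p = 0.00158, edgeR) and IL6ST (1.31, standard error 0.246, adjusted p = 0.00526, edgeR). For TFF3, which fell in SKBR3 and stood at 2.54 ± 0.159 and 2.59 ± 0.37 CPM (SD, n = 3) in untreated and TWEAK-treated MDA-MB-453, the difference was 1.02 (standard error 0.258, adjusted p = 0.0453, edgeR). The difference of TFF3 was not called without SKBR3 untreated replicate 1 or TWEAK replicate 1, or without untreated replicates 1 or 2 or TWEAK replicates 1 or 3 of MDA-MB-453. Nor was it called with the replicate number as a block, and its adjusted p from edgeR or DESeq2 lay between 5.96e-05 and 0.173 over the alternatives. The difference of PLSCR1 was lost without any of 8 libraries, which were all except SKBR3 untreated replicate 1 and TWEAK replicate 2 and MDA-MB-453 untreated replicate 3 and TWEAK replicate 2. It was also lost at an adjusted p of 0.05 and with the replicate number as a block, with an adjusted p from edgeR or DESeq2 between 0.000598 and 0.24. The difference of KRT19 was lost in 11 of 20 alternatives, with an adjusted p from edgeR or DESeq2 between 9.02e-05 and 0.226.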

How the results depend on the processing

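MUC1 in SKBR3 kept its direction and its call under every alternative. SAA1 in SKBR3 and LTF in MDA-MB-453 kept theirs under every alternative in which they could be tested. Apart from the run without the filter on low counts, these 2 genes entered only through their TWEAK-treated libraries. No weight can therefore be put on how often their rise was called. With at least 10 counts in every library, SAA1 and LTF were removed, so that the higher genes of the 10 numbered 0 in each line, and 1 between the untreated lines. With each library left out in turn, the 10 held 1 to 2 higher genes in SKBR3 and 5 to 6 between the untreated lines. The log2 fold change of MUC16 in SKBR3 turned to 0.0067 without untreated replicate 1 and 0.16 without TWEAK replicate 2. That of SLPI in MDA-MB-453 was -0.0020 with DESeq2, -0.00019 with the replicate number as a block, -0.011 without untreated replicate 3, and -0.020 and -0.11 without TWEAK replicates 1 and 3, within a range up to 0.14. The interaction of MUC1 was -0.13 and -0.059 without TWEAK replicates 1 and 3 of MDA-MB-453, within a range up to 0.57, and the untreated difference of LTF was 0.94 without MDA-MB-453 untreated replicate 1, within a range from -0.83. The cause was not tested.

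Replicates with the same number did not deviate together in every pair (r across genes of 0.169, -0.144 and -0.233 for SKBR3 and of 0.129, 0.133 and 0.0239 for MDA-MB-453), so the replicate number was taken as a name only. In MDA-MB-453 every sample correlated best with its own number, which is a hint from the data and not the design, and in SKBR3 this did not hold. With the number as a block, the log2 fold change was 3.19 for SAA1, -0.50 for MUC1 and 4.48 for LTF, the calls among the 10 were the same in number, and calls over all genes went from 1034 higher and 599 lower to 824 and 387 for SKBR3 and, for MDA-MB-453, from 192 and 31 to 490 and 404. The block also ended the calls of MUC15 (-0.38, adjusted p = 0.135, edgeR) and KRT19 (0.31, adjusted p = 0.105, edgeR) in SKBR3, and of the differences between lines of TFF3 (1.01, adjusted p = 0.105, edgeR), PLSCR1 (0.54, adjusted p = 0.121, edgeR) and KRT19 (-0.35, adjusted p = 0.198, edgeR). With the block, 1 O-glycosylation gene was higher in SKBR3, and in MDA-MB-453 2 O-glycosylation genes and 1 WFDC gene were higher, and 1 O-glycosylation gene, 2 partners and 3 upstream genes were lower. Depth limits SAA2 and WFDC2, with 0 to 4 counts in every library, and MUC4, with at most 1.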
